A study of Mus musculus with 11 samples.

Results

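The 8 genes described here, P2ry12, Cx3cr1, Csf1r, Tmem119, Tgfbr1, Inpp5d, Siglech and Sall1, are genes that resting brain microglia are known to transcribe. They were taken by symbol from a list of 25938 gene symbols, and 8 of 8 were measured. Their UMI counts (unique molecular identifiers, each standing for a captured RNA molecule) were summed per library and per cell class name that the authors deposited for each nucleus. Levels are given as CPM, the UMIs of a gene per 1000000 UMIs of the class in that library.

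The 11 single-nucleus libraries each came from the brain of 1 mouse, and every mouse carried 2 copies of a knock-in of the human transferrin receptor (TfR), a receptor that can carry molecules bound to it into the brain. Dosing was intravenous, 4 times in all, and ended 72 h before the tissue was collected. The control group received ATV:BACE1 at 57 mg/kg (n = 3), which binds TfR and has no antisense oligonucleotide (ASO). OTV:Malat1 at 60 mg/kg (n = 3) joins TfR binding with an ASO against the nuclear RNA Malat1. In nonTV:Malat1 (RSV-ASO in the titles), also given at 60 mg/kg (n = 3), the same ASO is linked to a molecule that does not bind TfR, and Malat1 ASO at 2.5 mg/kg (n = 2) is the oligonucleotide alone. In each group replicate 1 was a female of 2.33 months and replicate 5 a male of 2.33 months. Replicate 4, present in the first 3 groups, was a male of 2.57 months. The labels give the brain region as posterior while the deposited metadata give cortex and the strain C57BL/6J. The series' design text can be read as giving the control group 60 mg/kg as well. These statements were not reconciled. No source used here says that the animals of a replicate number shared a litter, so p-values measure the spread between these libraries.

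Microglia are the resident macrophages of the brain. Their resting, or homeostatic, programme depends on TGF-β signalling and on the lineage factor PU.1, and CSF1R signalling keeps the cells alive. Perivascular macrophages lie along blood vessels, also need CSF1R, and lack much of this programme. Among the members, P2ry12 encodes the ADP receptor that steers microglial processes, Cx3cr1 the receptor of the neuronal chemokine fractalkine, and Csf1r the receptor of CSF1 and IL-34. Tgfbr1 encodes the type I TGF-β receptor, Siglech a sialic acid-binding lectin and Tmem119 a transmembrane protein used as a microglial marker. Inpp5d encodes SHIP1, an inositol phosphatase that limits signalling from immune receptors, and Sall1 a zinc finger transcription factor of the homeostatic programme.

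Promoters are shown for 3 members, because ETS factors such as PU.1 bind a core of the letters GGAA and these windows differ in holding the longer form GGAAGT. Each window holds the 250 bases before a RefSeq gene start in build GRCm38.p6, written 5′ to 3′ on the strand of the gene, with GGAAGT in capitals. P2ry12 lies on the minus strand at chr3:59262986-59263235, Inpp5d on the plus strand at chr1:87620062-87620311 and Tgfbr1 on the plus strand at chr4:47352972-47353221.
P2ry12: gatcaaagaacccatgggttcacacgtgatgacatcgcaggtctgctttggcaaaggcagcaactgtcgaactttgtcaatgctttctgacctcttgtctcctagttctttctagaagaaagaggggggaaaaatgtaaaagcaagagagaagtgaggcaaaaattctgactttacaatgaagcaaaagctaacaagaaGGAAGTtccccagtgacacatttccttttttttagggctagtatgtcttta
Inpp5d: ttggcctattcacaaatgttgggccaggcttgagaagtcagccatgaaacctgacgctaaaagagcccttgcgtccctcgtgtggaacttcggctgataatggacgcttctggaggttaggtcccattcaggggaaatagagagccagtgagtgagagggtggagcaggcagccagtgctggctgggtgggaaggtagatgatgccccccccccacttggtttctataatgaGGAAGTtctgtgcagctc
Tgfbr1: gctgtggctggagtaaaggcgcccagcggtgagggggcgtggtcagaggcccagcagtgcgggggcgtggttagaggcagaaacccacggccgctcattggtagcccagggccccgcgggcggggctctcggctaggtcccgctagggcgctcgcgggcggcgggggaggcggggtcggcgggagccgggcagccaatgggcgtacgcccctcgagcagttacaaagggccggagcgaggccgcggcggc
The match in P2ry12 lies 51 bases before the start and that in Inpp5d 18 bases before it. The Tgfbr1 window shown has no GGAAGT on either strand, while that of its second RefSeq start (chr4:47385966-47386215) holds the reverse complement ACTTCC 171 bases before the start. The set of promoter windows used here covers 6 of the 8 members, with 9 RefSeq starts in all. It has no window for Csf1r or Tmem119, although RefSeq gives a span for both genes. Of these 9 windows 5 (55.6%) held GGAAGT or its reverse complement ACTTCC. Of 32851 windows of the same length in the set, 6485 (19.7%) held either. The letters CAGAC or GTCTG, a SMAD box, stood in 5 of the 9 member windows and in 42.2% of all windows. Both motifs were searched on both strands and neither contains the other. These matches describe the letters only.

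The libraries held 33235994 to 43972886 UMIs over 7546 to 13840 nuclei each. Of 110304 nuclei, 1175 were named Microglia (60 to 202 per library, 64349 to 233197 UMIs per library) and 125 Perivascular macrophages (5 to 21 per library). The median nucleus held 883 UMIs in Microglia and 866 in Perivascular macrophages. Barcode sequences that stand in more than 1 library belonged to 3011 nuclei, 22 of them Microglia and 5 Perivascular macrophages.

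Both names were checked against other genes. Of 25 other homeostatic genes 20 were higher in Microglia, among them Selplg, the gene of the ligand of P-selectin, at 687 against 28.8 CPM. The other 5, C1qa, C1qb, C1qc, Tyrobp and Aif1, were higher in Perivascular macrophages, C1qc at 188 CPM in Microglia and 224 CPM there. Counts in that class were low, at 31 UMIs for C1qc and 4 for Aif1. No intervals were made for these listed genes, so small differences may lie within counting error. Of 10 perivascular macrophage markers, 0 were higher in Microglia. The mannose receptor gene Mrc1 stood at 38.8 CPM in Microglia and 2474 CPM in Perivascular macrophages, and F13a1 at 34.2 and 3303 CPM. A UMI of Mrc1, F13a1 or Cd163 was present in 124 of 125 Perivascular macrophages and in 32 of 1175 Microglia. The summed CPM of 4 neuronal markers was 828 in Microglia and 671 in Perivascular macrophages, and of 4 oligodendrocyte markers 1924 and 1558. RNA typical of other cells was thus present in both classes. Its part in the values below was not tested.

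All 8 members had their highest level in Microglia among the 10 deposited classes. Since the class names were predicted from expression, the class comparison is a description without a test, and its 95% Poisson intervals cover counting error only. The comparison asks which of these genes mark Microglia apart from the other brain macrophages. By pooled ratio Csf1r was similar in both macrophage classes, and P2ry12 and Inpp5d were 2.14 and 2.20 times higher in Microglia. The other 5 stood at 3.48 to 9.59, with Tmem119 set against a floor of 3 UMIs. These are not separate groups: the interval of Siglech (2.51 to 4.97) overlapped those of P2ry12 (1.62 to 2.87) and Inpp5d (1.81 to 2.70). Of the 37 Siglech UMIs in Perivascular macrophages, 23 came from nonTV:Malat1.

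**Figure D1:**
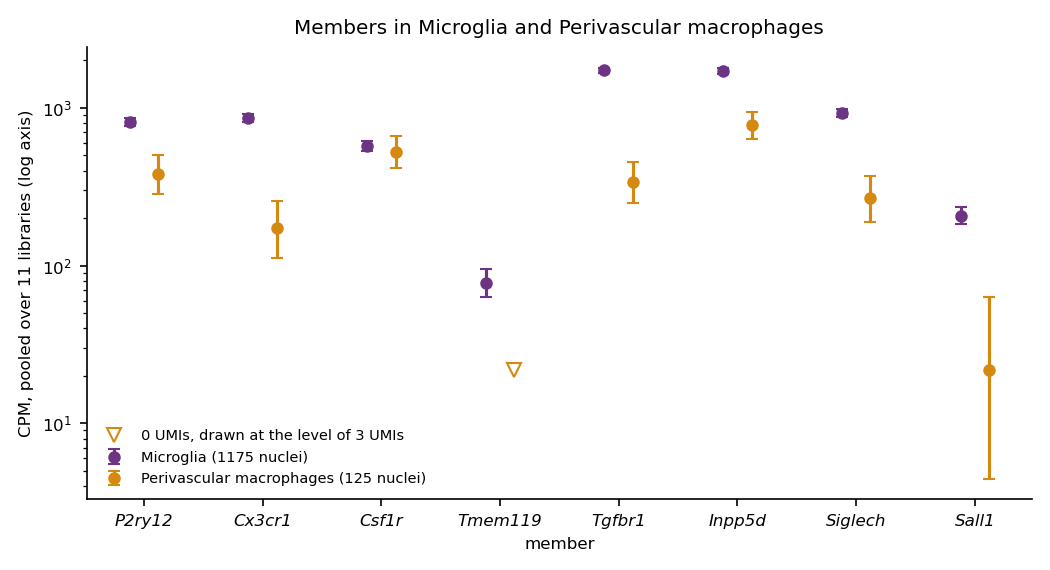
Pooled CPM (log axis) of each member in Microglia and Perivascular macrophages over 11 libraries, with exact 95% Poisson intervals. The intervals overlap for Csf1r, and Tmem119, with 0 UMIs in Perivascular macrophages, is drawn there at the level of 3 UMIs.

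Among the receptors, Csf1r stood at 574 CPM (95% interval 533 to 617) in Microglia and 526 CPM (413 to 662) in Perivascular macrophages, a ratio of 1.09 (0.856 to 1.41). It was higher in Microglia in 7 of 11 libraries. P2ry12 stood at 817 and 382 CPM, a ratio of 2.14 (1.62 to 2.87), higher in Microglia in 10 of 11 libraries. The library ranges overlapped for P2ry12, at 491 to 1168 CPM in Microglia and 185 to 883 CPM in Perivascular macrophages. Perivascular macrophages thus held clear counts of this microglial marker, 53 UMIs over 11 libraries.

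Cx3cr1 stood at 862 CPM in Microglia and 173 CPM in Perivascular macrophages, a ratio of 4.98 (3.33 to 7.81). Tgfbr1 showed a ratio of 5.10 (3.82 to 6.96), from 1728 and 339 CPM, and Siglech one of 3.48 (2.51 to 4.97), from 929 and 267 CPM. These 3 genes were higher in Microglia in 11 of 11 libraries, and their library ranges did not overlap. For Cx3cr1 the ranges were 523 to 1025 CPM in Microglia and 0 to 380 CPM in Perivascular macrophages.

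Tmem119 gave 100 UMIs in Microglia (77.7 CPM) and 0 of 138655 UMIs in Perivascular macrophages. Against a floor of 3 UMIs over the class, it was at least 3.59-fold higher in Microglia. The phosphatase gene Inpp5d stood at 1715 and 779 CPM, a ratio of 2.20 (1.81 to 2.70), higher in Microglia in 10 of 11 libraries. The transcription factor gene Sall1 gave 267 and 3 UMIs, a ratio of 9.59 with a wide interval of 3.24 to 46.8, and was higher in Microglia in 11 of 11 libraries. Counts of Tmem119 and Sall1 in Perivascular macrophages were too few to place their ratios more closely. With a class prediction score of at least 0.8 the ratio was 22.8 for Sall1 and 8.79 for Tgfbr1, and without nuclei under 1000 UMIs it was 5.71 and 3.76.

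Each nucleus was also thinned to 500 UMIs, which left out 3 nuclei below that depth, none of them Microglia or Perivascular macrophages. The share of nuclei with a UMI was then higher in Microglia for 8 of 8 members, with overlapping exact 95% intervals for Csf1r, at 27.6% (25.0 to 30.2) and 19.2% (12.7 to 27.2), and for Tmem119, at 3.32% (2.37 to 4.51) and 0.0% (0.0 to 2.91). Such intervals pool nuclei over libraries and leave out the spread between libraries. Inpp5d was detected in 59.6% of Microglia (exact 95% interval 56.7 to 62.4) and 37.6% of Perivascular macrophages (29.1 to 46.7). Before thinning these shares were 78.3% and 48.8%. P2ry12 was detected in 34.2% and 15.2% after thinning and in 52.8% and 26.4% before it. Sall1 was detected in 11.4% and 1.60% after thinning and in 19.0% and 2.4% before. In Neurons, thinned to the same depth from a median of 3926 UMIs, the thinned shares were 0.440% for Inpp5d, 3.46% for P2ry12 and 0.181% for Sall1. A thinned Microglia nucleus held UMIs of 2.65 members on average and a Perivascular macrophage of 1.05. Nuclei without any member made up 3.06% of Microglia and 32.8% of Perivascular macrophages, and the mean in Neurons was 0.0643 members.

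**Figure D2:**
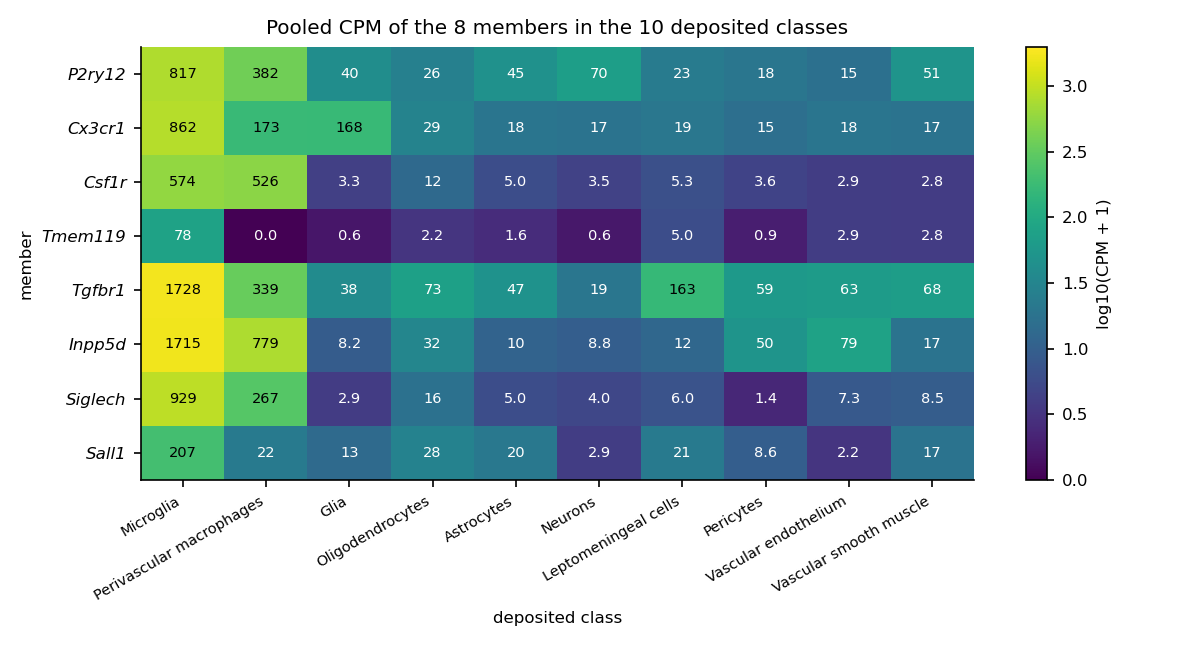
Pooled CPM of the 8 members in each of the 10 deposited classes, printed in each cell and coloured by log10(CPM + 1). Each member is highest in Microglia, with second levels in Perivascular macrophages for 6 members, and Cx3cr1 in Glia and Tgfbr1 in Leptomeningeal cells stand above the other non-macrophage classes.

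Outside the macrophages the members were low but not alike. Siglech was the most restricted, with 1.35 to 16.2 CPM in the 8 other classes, 57.2 times below Microglia at its highest. Csf1r spanned 2.82 to 12.3 CPM there and Tmem119 0.576 to 4.98 CPM. Sall1 spanned 2.19 to 27.7 CPM, and Oligodendrocytes (27.7 CPM), Perivascular macrophages (21.6 CPM) and Leptomeningeal cells (21.3 CPM) had overlapping library ranges. Inpp5d reached 78.9 CPM in Vascular endothelium, where the library range overlapped that of Pericytes, and 8.25 CPM in Glia was its lowest level.

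Tgfbr1 stood at 163 CPM in Leptomeningeal cells (163 ± 37.2, SD over 11 libraries), where the library range of 98.3 to 213 CPM overlapped that of Perivascular macrophages. In the other 7 classes it spanned 18.9 to 73.0 CPM. Cx3cr1 stood at 168 CPM in the class named Glia, at 174 ± 30.6 (SD, n = 11 libraries). Its library range there of 128 to 217 CPM overlapped that of Perivascular macrophages and lay above that of Oligodendrocytes, the next class at 28.8 CPM. In Glia nuclei with a UMI of the choroid plexus genes Folr1 or Kl, Cx3cr1 stood at 187 CPM, and at 145 CPM in those without. Csf1r, Siglech and Inpp5d stood at 3.26, 2.88 and 8.25 CPM in the same class.

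Neurons also held the largest share of P2ry12 RNA: they had 89.9% of its 28018 UMIs and Microglia 3.75%. Neurons are the most numerous class, with 76211 nuclei, and the level in them was 70.4 CPM against 817 CPM in Microglia. Over the 5 largest neuronal clusters of the authors the level was 61.8 to 79.4 CPM. Of the other members, Microglia held from 11.3% (Sall1) to 38.6% (Siglech) of the UMIs in all nuclei. Neurons held 67.2% of the UMIs of Cx3cr1, 55.8% of Tgfbr1, 53.4% of Tmem119, 52.0% of Csf1r and 44.8% to 48.4% of the other 3. A sum over all nuclei therefore reads 5 of the 8 members mostly from Neurons.

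The ratios between members also differed over classes. In Microglia of the authors' cluster 7, P2ry12 stood at 0.879 times Siglech, while in Neurons of other clusters it stood at 21.3 times Siglech and in Oligodendrocytes of other clusters at 5.33 times. Cx3cr1 stood at 0.925, 5.01 and 7.12 times Siglech in the same order, and Inpp5d at 1.84, 2.24 and 1.65 times. The ratio of Inpp5d to Siglech was thus similar in all 3 sets and that of P2ry12 was not.

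Gene models overlap at both genes. In GENCODE M21 (GRCm38), P2ry12 (chr3:59216272-59262871) lies within the span of Med12l on the opposite strand. Cx3cr1 has a model of 168264 bases there (chr9:119901616-120069879), against 19614 bases in RefSeq, and overlaps 9 other genes, among them Ttc21a on the opposite strand. Ttc21a stood at 164 CPM in Glia and 0.777 CPM in Microglia. Whether counting used strand is not given in the sources used here, and the part of overlapping genes in these levels was not tested.

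The authors' cluster 7 held 1163 of the 1175 Microglia and 117 of the 125 Perivascular macrophages, and also 842 nuclei of other names. In 458 of its nuclei named Neurons, Inpp5d stood at 329 CPM against 7.36 CPM in Neurons of other clusters. In 344 of its nuclei named Oligodendrocytes it stood at 624 CPM against 4.51 CPM. P2ry12 stood at 1.13 times Siglech in these Neurons and at 0.893 times in these Oligodendrocytes, near the 0.879 times of Microglia. Of the cluster 7 Neurons 29.0% were called doublets by the authors, against 13.7% of other Neurons, and of its Oligodendrocytes 4.65% against 0.744%. Nuclei of cluster 7 with other names held 1.87% (P2ry12) to 16.4% (Siglech) of a member's UMIs.

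By the rule for likeness, the genes whose pattern over the 10 classes came nearest to the mean of the members were Gm2629 (Pearson r = 0.988), Senp2 (0.985), Bin2 (0.983) and Tubgcp5 (0.979). Rnf216 (0.973), Lgmn (0.971), Tbc1d23 (0.970) and Il10ra (0.970) followed. The measure used log2(CPM + 1) over 10 classes and 1373 candidate genes with at least 200 UMIs in Microglia, and classes share libraries. Bin2 stood at 196 CPM in Microglia and 14.4 CPM in Perivascular macrophages, while Tbc1d23 stood at 179 and 137 CPM.

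The dosing comparison asks whether an ASO against Malat1, in any of 3 forms, came with a change of the homeostatic genes in Microglia. No member passed the test in any of 5 contrasts. All 8 were among the 3400 genes tested with edgeR (quasi-likelihood test, Benjamini-Hochberg adjustment over all genes, threshold 0.05). Over the 40 tests of members the smallest unadjusted p was 0.176 and the adjusted p ran from 0.998 to 1. Genes called over the whole fit were 1 (0.0294%) for OTV:Malat1 minus ATV:BACE1 and 1 (0.0294%) for OTV:Malat1 minus Malat1 ASO, in both cases Malat1, the gene targeted. The other 3 contrasts called 0 genes (0.0%) with edgeR, with 80 to 131 genes at an unadjusted p under 0.05.

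Malat1 made up 4.67% to 6.10% of Microglia UMIs in the libraries of ATV:BACE1, 4.14% to 5.45% in nonTV:Malat1, 2.82% to 3.17% in OTV:Malat1 and 5.18% to 5.73% in Malat1 ASO. The libraries of OTV:Malat1 lay below all others. Malat1 fell by 0.93 on the log2 scale (SE 0.13, edgeR adjusted p = 0.00188) in Microglia of OTV:Malat1 against ATV:BACE1. It fell by 0.90 (SE 0.14, edgeR adjusted p = 0.0111) against Malat1 ASO. Over 19 alternatives its log2 change was -1.14 to -0.85 in the first contrast, where it was called in 15, and -1.12 to -0.81 in the second, where it was called in 10. It was not called in either without OTV:Malat1 replicate 1, without nuclei under 1000 UMIs, without a filter on low counts or in cluster 7. In the second it was also not called with DESeq2, nor without OTV:Malat1 replicate 4, nonTV:Malat1 replicate 4 or either Malat1 ASO library. With the replicate number as a block it fell by 0.92 (SE 0.10, edgeR adjusted p = 2.46e-09) and 0.91 (SE 0.11, edgeR adjusted p = 1.71e-07).

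**Figure D3:**
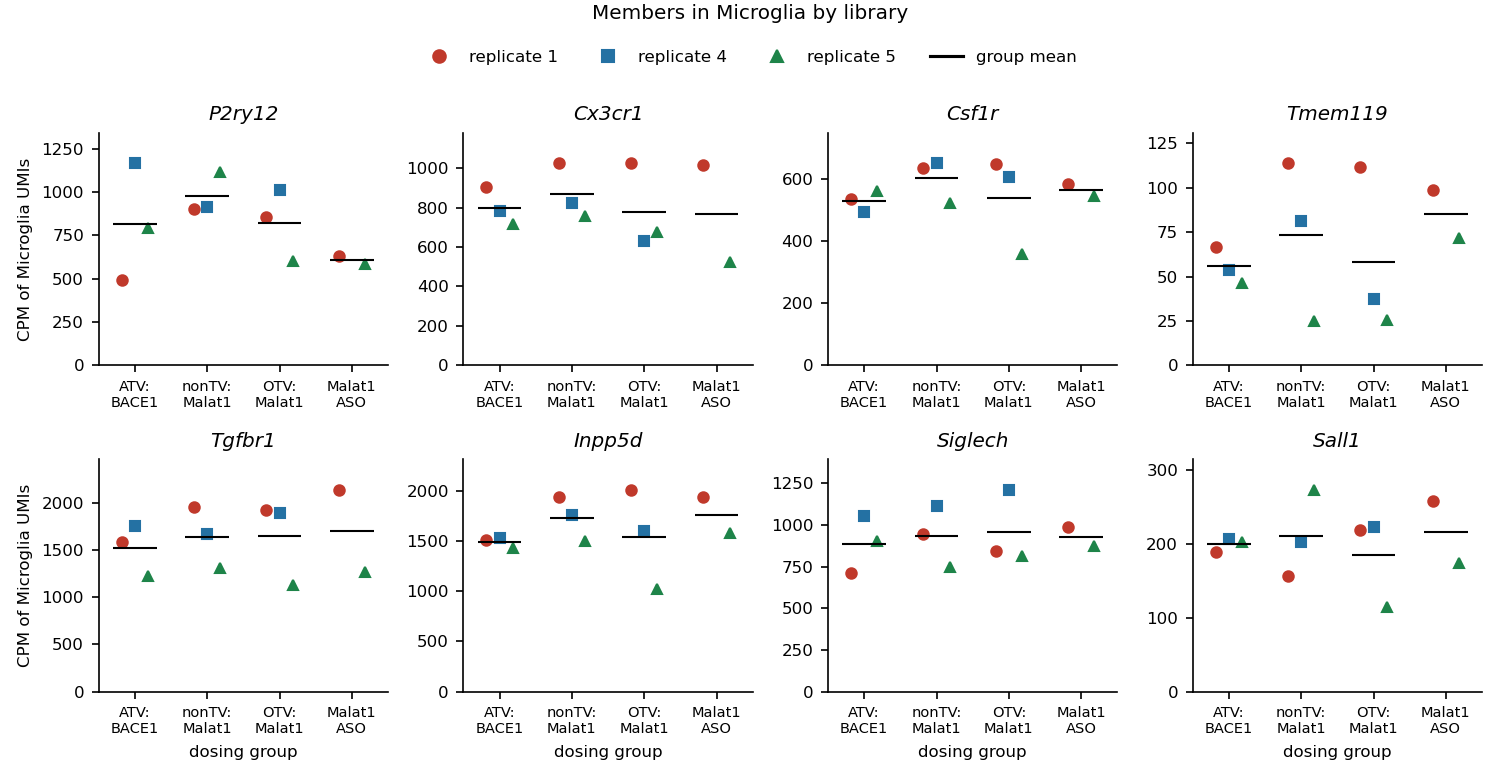
CPM of each member in Microglia in each of the 11 libraries, by dosing group, with the replicate number as the symbol and the group mean as a line. Library values of the groups overlap except for Tmem119 and Inpp5d between Malat1 ASO and ATV:BACE1, and for P2ry12 between nonTV:Malat1 and Malat1 ASO. Cx3cr1 is highest in replicate 1 of every group.

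P2ry12 stood at 491, 1168 and 793 CPM in ATV:BACE1 replicates 1, 4 and 5 and at 904, 914 and 1119 CPM in those of nonTV:Malat1. In OTV:Malat1 it stood at 858, 1015 and 600 CPM, and in Malat1 ASO replicates 1 and 5 at 629 and 585 CPM. The control libraries alone spanned the values of all the other groups. The libraries of nonTV:Malat1 lay above those of Malat1 ASO, a pair outside the 5 contrasts. For that pair the share of all genes without overlap was not counted. Against ATV:BACE1 its log2 change was -0.04 (SE 0.29) in OTV:Malat1, 0.23 (SE 0.28) in nonTV:Malat1 and -0.45 (SE 0.32, 95% interval -1.12 to 0.22) in the free ASO group. That fit had no replicate block, and the free ASO group has no library of replicate 4. With the replicate number as a block the change in the free ASO group was -0.27 (SE 0.25, 95% interval -0.76 to 0.22).

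Cx3cr1 stood at 903, 782 and 715 CPM in ATV:BACE1, at 1025, 822 and 758 CPM in nonTV:Malat1 and at 1025, 631 and 676 CPM in OTV:Malat1, in replicates 1, 4 and 5. Replicates 1 and 5 of Malat1 ASO held 1015 and 523 CPM. The groups overlapped, and within each of them replicate 1 was the highest library. The log2 change against ATV:BACE1 was -0.06 (SE 0.27) in OTV:Malat1, 0.10 (SE 0.27) in nonTV:Malat1 and -0.06 (SE 0.30) in the free ASO group.

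Csf1r averaged 530 ± 32.9 CPM in ATV:BACE1 (SD, n = 3), 602 ± 69.6 in nonTV:Malat1 (n = 3), 537 ± 157 in OTV:Malat1 (n = 3) and 563 ± 27.4 in Malat1 ASO (n = 2). Its log2 change for OTV:Malat1 against ATV:BACE1 was 0.00 (SE 0.25). Tgfbr1 averaged 1521 ± 268, 1640 ± 324, 1645 ± 452 and 1699 ± 619 CPM in the same order of groups, with a log2 change of 0.07 (SE 0.25) for OTV:Malat1. Both receptors differed between groups by less than the spread of libraries within OTV:Malat1.

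Siglech averaged 889 ± 169, 937 ± 186, 958 ± 221 and 929 ± 80.9 CPM in ATV:BACE1, nonTV:Malat1, OTV:Malat1 and Malat1 ASO. Sall1 averaged 199 ± 8.86, 211 ± 58.8, 185 ± 61.2 and 216 ± 59.4 CPM. Their log2 changes for OTV:Malat1 against ATV:BACE1 were 0.06 (SE 0.25) and -0.10 (SE 0.32). The OTV:Malat1 library of replicate 5 held the lowest Sall1, Csf1r, Tgfbr1 and Inpp5d levels of the 11. It also held the highest sums of neuronal (1327 CPM) and oligodendrocyte markers (2974 CPM) and the largest share of Microglia without a detected member after thinning, 6.76%. The part of this RNA in its member levels was not tested. Without that library 0 members were called.

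Tmem119 rested on 2 to 26 UMIs per library. It stood at 66.9, 53.9 and 46.6 CPM in ATV:BACE1 and at 98.6 and 71.8 CPM in Malat1 ASO, so that these libraries did not overlap. The edgeR log2 change was 0.61 (SE 0.63, adjusted p = 0.999), with an interval from -0.70 to 1.92. In nonTV:Malat1 it stood at 114, 81.2 and 24.9 CPM and in OTV:Malat1 at 111, 37.1 and 25.5 CPM, and both groups overlapped the control.

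Inpp5d stood at 1505, 1528 and 1430 CPM in ATV:BACE1 and at 1940 and 1580 CPM in Malat1 ASO, again without overlap, with a log2 change of 0.23 (SE 0.25). In nonTV:Malat1 it stood at 1937, 1757 and 1504 CPM and in OTV:Malat1 at 2011, 1597 and 1021 CPM. These were the 2 pairs of groups without overlap among 40. Of all 3400 genes, 16.4% did not overlap in that contrast, so that 2 of 8 members is near the background. The share was 7.09% for OTV:Malat1 and 7.71% for nonTV:Malat1 against ATV:BACE1, and 7.06% and 14.2% for OTV:Malat1 against nonTV:Malat1 and Malat1 ASO.

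**Figure D4:**
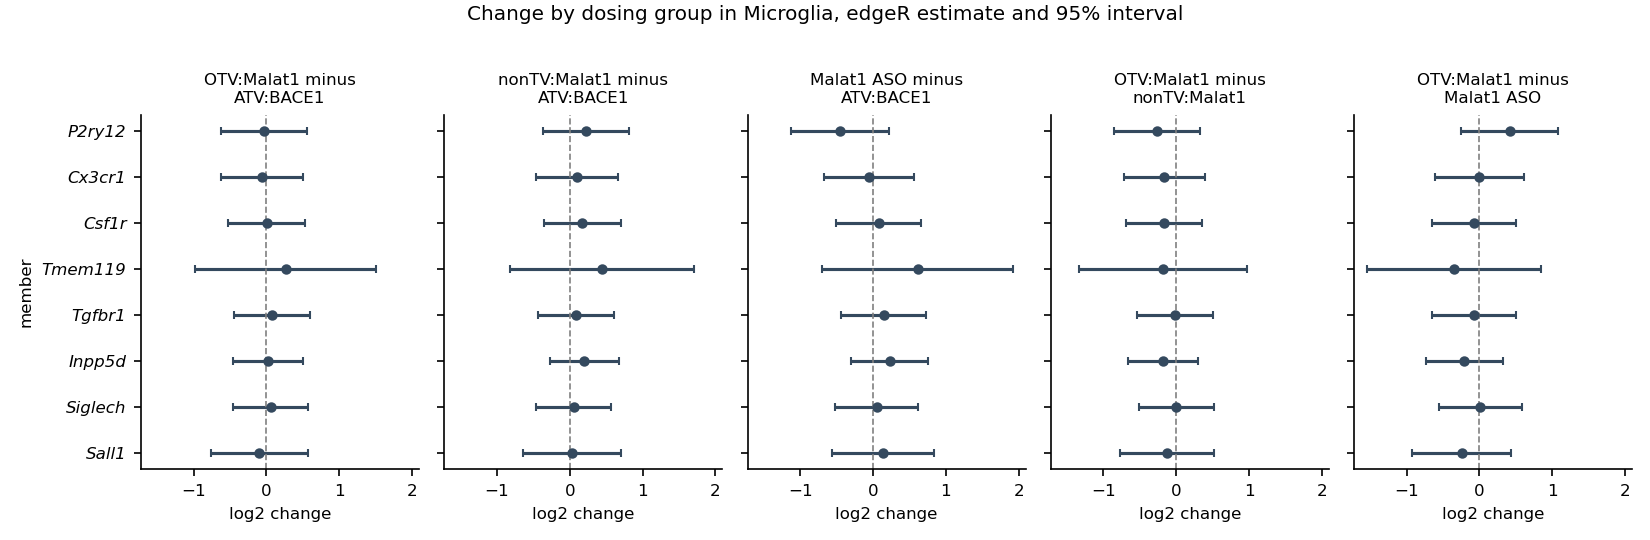
Log2 change of each member in Microglia under 5 contrasts of dosing groups, as edgeR estimates without a replicate block (points) with 95% intervals (bars). All 40 intervals hold 0, and those of Tmem119 are the widest.

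For the 7 members other than Tmem119 the estimates lay between -0.45 and 0.41 on the log2 scale with SEs of 0.23 to 0.34, and the intervals reached from -1.12 to 1.08. With OTV:Malat1 against nonTV:Malat1, which differ in TfR binding at the same dose, the member estimates had a median of -0.17, and 7 of 8 were below 0. Without the OTV:Malat1 library of replicate 5 the median was 0.03 and 2 of 8 were below 0. The median of all genes tested in that contrast was 0.01. The contrasts against ATV:BACE1 share its 3 libraries. Their member medians were 0.01 with OTV:Malat1, 0.14 with nonTV:Malat1 (8 of 8 above 0) and 0.11 with the free ASO, beside 0.00 over all genes in each. Without the same library the median with OTV:Malat1 was 0.16, and 0 of 8 estimates were below 0. For OTV:Malat1 minus Malat1 ASO the median was -0.08 with it and 0.09 without it. Of 4 neuronal markers in the same Microglia sums 0 were called, and their median log2 changes were -0.09, -0.53 and -0.83 in the 3 contrasts against ATV:BACE1, in the same order, and 0.34 (4 of 4 above 0) for OTV:Malat1 minus nonTV:Malat1. Ttr, the transthyretin gene and the only one of 3 choroid plexus markers that passed the filter, had a log2 change of -0.94 (SE 0.24, edgeR adjusted p = 0.999) in the last contrast and 0.41 for nonTV:Malat1 minus ATV:BACE1. With the replicate number as a block it was called in the last contrast (-0.94, SE 0.18, edgeR adjusted p = 0.00347). The part of neuronal and choroid plexus RNA in the member values was not tested.

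With the replicate number as a block, 0 members were called in any contrast. For the 7 members other than Tmem119 the estimates then lay between -0.28 and 0.29 on the log2 scale. Their SEs were 0.16 to 0.33, and their intervals reached from -0.89 to 0.87. Siglech stood at 0.23 (SE 0.21) for Malat1 ASO minus ATV:BACE1, beside 0.05 (SE 0.27) without the block. The genes called with the block were 2 (0.0588%) for OTV:Malat1 and 12 (0.353%) for nonTV:Malat1, each against ATV:BACE1. The 12 were all lower in nonTV:Malat1, with log2 changes of -2.86 to -0.89, and 11 of them had a higher pooled level in Neurons than in Microglia, such as Lsamp (4897 and 882 CPM) and Ntm (1805 and 259 CPM), which encode neuronal adhesion molecules. The 2 were Malat1 and Asic2, an acid-sensing channel gene, both lower. There were 5 calls (0.147%) for OTV:Malat1 minus nonTV:Malat1. Malat1 (-0.71, SE 0.10, edgeR adjusted p = 4.6e-06), Ttr and mt-Co1 were lower, and Ntm and Slc35f1 were higher. The contrasts with Malat1 ASO each had 1 call (0.0294%), lower, Asic2 against ATV:BACE1 and Malat1 for OTV:Malat1 minus Malat1 ASO. The part of RNA of other cells in the member values of the blocked fit was not tested.

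No related gene was called under dosing either, beside 0.0% to 0.0294% of all 3400 genes in these contrasts. Likeness of their changes to those of the members was not tested. Of 25 other homeostatic genes 21 were tested in Microglia, and 0 were called in any of the 5 contrasts. The median log2 change for OTV:Malat1 against ATV:BACE1 was 0.03. This list includes Mertk, a receptor for the clearance of dying cells (1548 CPM), Cst3, a protease inhibitor gene (1316 CPM), and Bin1 (741 CPM). Of 10 transcription factors, led by Mef2a (1740 CPM) and Mef2c (1302 CPM), 10 were tested and 0 called. By level, without intervals, 7 of the 10 were higher in Microglia than in Perivascular macrophages. Among them Spi1, which encodes PU.1, was nearly equal at 212 against 209 CPM. The 3 that were lower in Microglia were Maf (391 and 1060 CPM), Runx1 (754 and 837 CPM) and Elf1 (209 and 260 CPM).

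Of 19 ligands and signalling partners, 11 were tested and 0 called. Tgfbr2, which pairs with Tgfbr1 as the type II receptor, stood at 420 CPM in Microglia and 454 CPM in Perivascular macrophages, where Tgfbr1 was 5.10 times lower. Nrros, which presents latent TGF-β on macrophages, stood at 202 and 418 CPM. The inhibitors of the same pathway Ski and Smad7 stood at 300 and 226 CPM in Microglia and at 144 and 43.3 CPM in Perivascular macrophages. Of 22 activation genes 21 were measured, 6 tested and 0 called by dosing group. The 4 highest in Microglia were Fth1 (1089 CPM), Apoe (1059 CPM), Cd9 (162 CPM) and Ctsb (142 CPM).

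In sums over all nuclei, with no use of class names, 0 of 8 members and 0 of 21409 genes were called in any contrast by edgeR (0.0%). DESeq2 called 0 to 2 genes and no member. In such sums fewer cells of a type and less RNA per cell cannot be told apart. Without a block the smallest unadjusted p of a member was 0.0777 in edgeR, for Tgfbr1 with Malat1 ASO against ATV:BACE1. Its log2 change was 0.38 (SE 0.20, edgeR adjusted p = 1). Of all genes in that contrast, 375 had an unadjusted p under 0.05. Microglia made up 0.535% to 2.01% of the nuclei of a library. With the replicate block 4 genes (0.0187%) were called for Malat1 ASO against ATV:BACE1 and none of them was a member.

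In 7 other classes 0 of 150 tests of members were called by edgeR, and 3 (2.00%) had an unadjusted p under 0.05, against 2.10% of all 372585 gene tests. In Neurons 8 members passed the filter on low counts, in Astrocytes and Oligodendrocytes 7, in Glia 3, in Pericytes and Vascular endothelium 2 and in Leptomeningeal cells 1, while in Vascular smooth muscle none did. The 3 were Sall1 in Oligodendrocytes and Inpp5d in Vascular endothelium with OTV:Malat1 against ATV:BACE1, and Inpp5d in Pericytes with OTV:Malat1 against Malat1 ASO. Their log2 changes were -0.41, 0.94 and -1.04. Called genes made up 0.00809% in Oligodendrocytes and 0.045% or 0.0225% in Vascular endothelium in the contrasts of OTV:Malat1, and 0.0% elsewhere. Perivascular macrophages were not tested, since 1 library reached 20 nuclei. Pooled, P2ry12 stood there at 430, 513, 361 and 191 CPM in ATV:BACE1, nonTV:Malat1, OTV:Malat1 and Malat1 ASO, with overlapping 95% Poisson intervals. Siglech had 2 UMIs (78.2 CPM, interval 9.47 to 282) in ATV:BACE1, 4 UMIs (103 CPM, 28.1 to 264) in OTV:Malat1, 8 UMIs (254 CPM, 110 to 501) in Malat1 ASO and 23 UMIs (537 CPM, 340 to 805) in nonTV:Malat1. The interval of nonTV:Malat1 lay above those of ATV:BACE1 and OTV:Malat1, which were the 2 pairs without overlapping intervals among the members. By library Siglech stood at 0, 286 and 0 CPM in ATV:BACE1, at 47.5, 163 and 184 CPM in OTV:Malat1 and at 674, 402 and 535 CPM in nonTV:Malat1, from 5 to 21 nuclei each. Among the 623 genes with at least as many UMIs in this class as Siglech, 10.1% did not overlap between the libraries of nonTV:Malat1 and ATV:BACE1 and 7.54% between those of OTV:Malat1 and nonTV:Malat1. These pairs were picked from the values and have no test.

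The larger split among Microglia libraries went with the replicate number, and so with sex and the deposited batch number, which cannot be told apart. Age did not follow it, since replicates 1 and 5 were both 2.33 months old. Replicate 1 was set against the mean of replicates 4 and 5 in an edgeR fit that also held the dosing group. This called 210 of 3400 genes (6.18%), 55 higher (1.62%) and 155 lower (4.56%) in replicate 1. The count depended on single libraries: it was 106, 76 and 71 without replicate 1 of ATV:BACE1, nonTV:Malat1 and OTV:Malat1, 130 and 126 without replicate 4 of ATV:BACE1 and nonTV:Malat1, and 134 without replicate 5 of OTV:Malat1. Of the 8 members 1 was called, Cx3cr1, higher in replicate 1, and 0 were called lower.

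Cx3cr1 held 903 to 1025 CPM in the 4 libraries of replicate 1 and 523 to 822 CPM in the other 7, with no overlap, as held for 2.79% of all genes tested. Its log2 change was 0.49 (SE 0.14, edgeR adjusted p = 0.0283). The call was lost, with adjusted p-values from 0.0530 to 0.205, without nonTV:Malat1 replicate 1 or 4, OTV:Malat1 replicate 1 or 4, or Malat1 ASO replicate 1 or 5. Over these 6 the estimate lay between 0.40 and 0.55. It was also lost with DESeq2 (adjusted p = 0.240), without called doublets (0.0656), without nuclei under 1000 UMIs (0.0734) and with a class prediction score of at least 0.8 (0.0809).

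Tmem119 stood at 97.7 ± 21.6 CPM in replicate 1 (SD, n = 4) and 48.7 ± 21.8 in the others (n = 7), a log2 change of 0.90 (SE 0.38, edgeR adjusted p = 0.159). Tgfbr1 had a log2 change of 0.30 (SE 0.12, adjusted p = 0.131) and Inpp5d of 0.25 (SE 0.12, adjusted p = 0.256) in the same edgeR fit. P2ry12 and Siglech had estimates of the other sign, -0.28 (SE 0.16) and -0.21 (SE 0.14). Csf1r (0.13, SE 0.16) and Sall1 (0.01, SE 0.22) were closest to 0. These 7 members overlapped between the 2 sets of libraries and were not called.

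Of the related lists, 2 of 21 other homeostatic genes tested were called, both higher in replicate 1. They were Selplg (log2 change 0.80, SE 0.15) and Cst3 (0.65, SE 0.13). Fth1, which encodes the ferritin heavy chain, was called among 6 activation genes tested (0.96, SE 0.15). Over all genes of this fit 1.62% were called higher and 4.56% lower in replicate 1. No transcription factor and no ligand or partner was called. Markers of other cells were also present in the same Microglia sums. The summed level of oligodendrocyte markers was 1569 to 1974 CPM in replicate 1 and 1275 to 2974 CPM in the others. Of 4 neuronal markers 0 were called, with sums of 625 to 926 CPM and 800 to 1327 CPM. Their part in the result for Cx3cr1 was not tested. Microglia made up 0.740% to 2.01% of nuclei in replicate 1 and 0.535% to 1.09% in the others, and the median nucleus held 844 to 983 and 699 to 1001 UMIs.

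**Figure D5:**
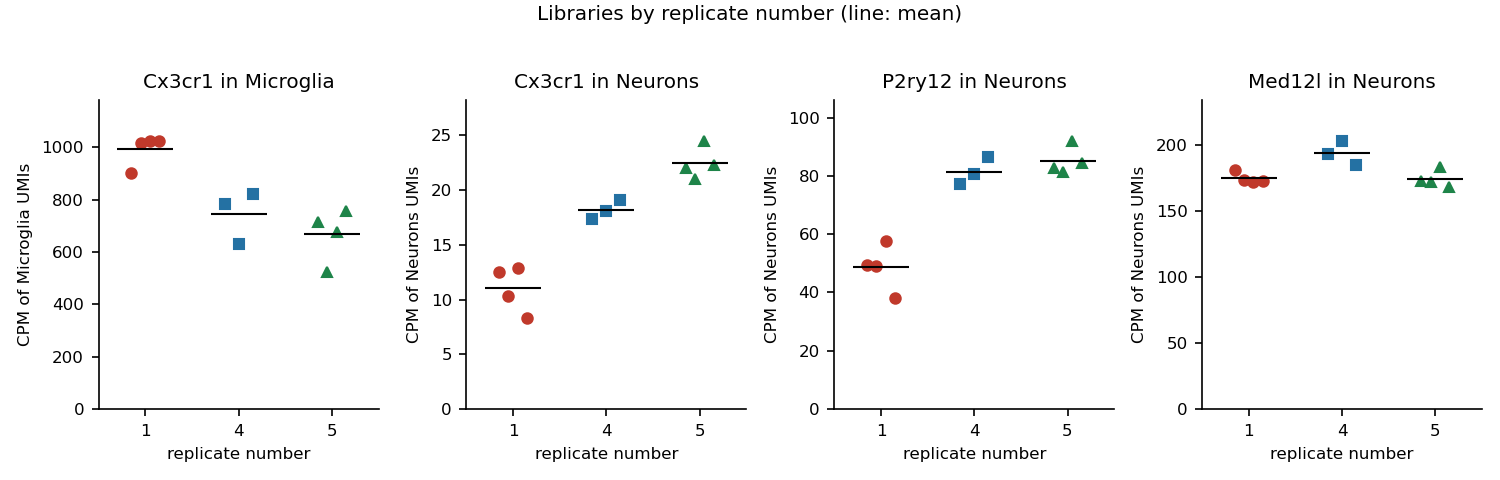
CPM by library and replicate number for Cx3cr1 in Microglia and in Neurons, P2ry12 in Neurons and Med12l in Neurons, with the mean of each replicate number as a line. Cx3cr1 in Microglia is higher in the 4 libraries of replicate 1, Cx3cr1 and P2ry12 in Neurons are lower in them, and Med12l in Neurons overlaps.

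In Neurons Cx3cr1 and P2ry12 were both lower in replicate 1, for Cx3cr1 the opposite sign to Microglia and for P2ry12 the same sign as its uncalled estimate there. P2ry12 held 38.2 to 57.7 CPM in the libraries of replicate 1 and 77.0 to 92.1 CPM in the others, a log2 change of -0.77 (SE 0.08, edgeR adjusted p = 1.85e-05). Cx3cr1 held 8.32 to 12.9 and 17.4 to 24.5 CPM (-0.86, SE 0.09, adjusted p = 2.14e-05 in edgeR). Neither overlapped, as held for 16.7% of all genes tested in Neurons. Siglech (-0.75, SE 0.18) and Inpp5d (-0.44, SE 0.12) were also called lower, with overlapping libraries, and Csf1r, Tgfbr1, Tmem119 and Sall1 were not called. In that fit 7436 of 20719 genes (35.9%) were called, 3681 higher (17.8%) and 3755 lower (18.1%), so that 4 of 8 members called lower stands beside a share of 18.1% for all genes.

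Med12l, whose span covers P2ry12 on the opposite strand, held 172 to 182 CPM in Neurons of replicate 1 and 169 to 204 CPM in the others, and was not called (-0.06, SE 0.04). In Microglia Med12l was called lower in replicate 1 (-0.69, SE 0.17, edgeR adjusted p = 0.00504), while P2ry12 was not called. In the class named Glia, P2ry12 held 17.8 to 35.0 and 40.7 to 72.2 CPM without overlap (-1.31, SE 0.25, edgeR adjusted p = 0.00169). Of all genes tested in Glia, 3.13% did not overlap. There 289 of 10228 genes (2.83%) were called, 84 higher (0.821%) and 205 lower (2.0%). Cx3cr1 in Glia held 128 to 163 and 157 to 217 CPM, with an uncalled change of -0.47 (SE 0.15, adjusted p = 0.0748). It passed the threshold without Malat1 ASO replicate 1 (-0.58, adjusted p = 0.0268) and without Malat1 ASO replicate 5 (-0.59, adjusted p = 0.0266). Over 13 alternatives the adjusted p was 0.0266 to 0.452, and without called doublets the change was -0.31.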

How the data were processed

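Nuclear RNA of 11 mouse brain libraries was analysed from the UMI counts deposited by the authors, without normalization, for 25938 gene symbols and 110304 nuclei. Column sums equalled the deposited totals in 110304 nuclei. The submitters' processing notes name Cell Ranger 5.0.0, Seurat 4 and mm10, with no role or order. What annotation release, nucleus filters, class predictor and doublet caller were used is not given in the sources used here. Metadata deposited by the authors also give the percent of UMIs on mitochondrial genes, and class prediction scores as a fraction from 0 to 1. Groups followed the treatment labels, and the 11 libraries hold no replicate 4 of Malat1 ASO. Called doublets were kept in the main tests.

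Counts were summed per library and deposited class (at least 20 nuclei) and tested with edgeR 4.0.16 in R 4.3.3: TMM, filterByExpr by group, glmQLFit and glmQLFTest, 4 groups in 1 fit, Benjamini-Hochberg adjustment over all genes, threshold 0.05. The fit was tested on simulated data. Alternatives used DESeq2 1.42.0, total counts, Malat1 left out, no filter, a replicate block, doublets left out, nuclei under 1000 UMIs left out, a prediction score of at least 0.8, and each library left out in turn. Cluster 7 in place of the class, all alternatives of the replicate comparison, and leaving out Microglia with a UMI of Mrc1, F13a1 or Cd163 were chosen after seeing the data. In GENCODE M21 and RefSeq (GRCm38.p6) genes were matched by symbol. Descriptions used Python 3.11.15 with pandas 2.3.3, numpy 2.4.6 and scipy 1.17.1, and plots matplotlib 3.10.9. The Poisson and exact intervals pool UMIs or nuclei over libraries, so they cover counting error only and leave out the spread between libraries. Variation from PCR and droplet capture is not covered by them either.

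Replicate numbers pair the libraries: replicates 1, 4 and 5 carry batch numbers 1, 3 and 4 in the deposited metadata. Deviations from group means in Microglia correlated at 0.107 to 0.420 in the 15 pairs of the same number (median 0.249) and at -0.331 to 0.131 in the 30 other pairs. In all nuclei they correlated at 0.344 to 0.704 (median 0.501) and at -0.599 to 0.336.

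The members and lists were chosen with earlier results of these data known. Beside the 8 members the text names genes called in Microglia, of each list at most the 4 highest in Microglia and called ones, marker genes of the checks, and the 8 genes most like the members. C1qa, C1qb, C1qc, Tyrobp, Aif1, Maf, Runx1, Elf1, Spi1, Nrros, Smad7, Cd163, Med12l, Ttc21a, Folr1 and Kl lie outside that rule and were chosen after their values were seen. Of genes called with the replicate block some were counted and not named. Some genes that the rule names are not reported here.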

Additional observations from a re-analysis of the deposited data

Results flagged for a closer look

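By replicate number, Cx3cr1 moved in opposite directions in 2 classes. In Microglia its log2 change for replicate 1 minus the mean of replicates 4 and 5 was 0.49, and the 4 libraries of replicate 1 lay above the other 7. In Neurons it was -0.86, and the same 4 libraries lay below the other 7. Libraries did not overlap in this way for 2.79% of all genes tested in Microglia and 16.7% of those in Neurons. The gene was picked for its lack of overlap in both classes, so that this is no separate result. The call of Cx3cr1 in Microglia was kept under 9 of 19 alternatives. The difference between the classes was not tested.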

How the results depend on the processing

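Over 1500 values of members by dosing group under alternatives, 0 passed the threshold (smallest adjusted p 0.427) and 25 moved by more than 1 SE. In Microglia 0 members were called in each of 5 contrasts under each of 20 alternatives, and in all nuclei under each of 18. With the replicate block no member's call changed, in Microglia or in all nuclei. Counts of all genes called in Microglia did change. For OTV:Malat1 minus ATV:BACE1 (1 gene) they were 0 without Malat1, without nuclei under 1000 UMIs and in cluster 7, 3 without a filter and 2 with the replicate block. For nonTV:Malat1 minus ATV:BACE1 (0) they were 10 without a filter and 12, all lower, with the block. For Malat1 ASO minus ATV:BACE1 (0) they were 1 in both. For OTV:Malat1 minus nonTV:Malat1 (0) they were 3 without a filter, 5 with the block, and 1 each with total counts, without doublets and with a score of at least 0.8. For OTV:Malat1 minus Malat1 ASO (1) they were 0 with DESeq2, without Malat1, without a filter, without nuclei under 1000 UMIs and in cluster 7. Leaving out a library gave 0 to 2, 0 to 6, 0 to 1, 0 to 1 and 0 to 1 in that order of contrasts. In all nuclei DESeq2 called 1, 2, 1 and 2 genes for OTV:Malat1 minus ATV:BACE1, Malat1 ASO minus ATV:BACE1, OTV:Malat1 minus nonTV:Malat1 and OTV:Malat1 minus Malat1 ASO. The block called 4 for Malat1 ASO minus ATV:BACE1. The causes were not tested.

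By replicate number in Microglia, 0 members were called, in place of 1, with DESeq2, without doublets, without nuclei under 1000 UMIs and with a score of at least 0.8, and 0 to 1 without a library. The change of Cx3cr1 was then 0.47 with DESeq2, 0.47 without doublets, 0.58 without nuclei under 1000 UMIs and 0.44 with the score, and 0.40 to 0.58 without a library. Genes called, 210 in the main fit, were 39 with DESeq2, 94 without doublets, 94 with the score, 604 in cluster 7 and 71 to 279 without a library. P2ry12 in Neurons stayed called under its 13 alternatives, at -0.86 to -0.65. Cx3cr1 in Glia was -0.59 to -0.38 without a library and -0.31 without doublets (edgeR adjusted p = 0.27). The causes were not tested.

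Of the 7 members above Perivascular macrophages beyond counting error, 7 remained so in number under 15 alternatives. The ratio of Sall1 ranged from 5.71 to 22.8 and that of Csf1r from 0.995 to 1.25. Depth limits Perivascular macrophages, with 138655 UMIs in all, and Tmem119 in Microglia, with 100.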
